A study of Mus musculus with 17 samples.

Results

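The 7 genes described here, Cux1, Cux2, Rorb, Lamp5, Calb1, Rasgrf2 and Mdga1, are used as markers of upper-layer neurons of the cerebral cortex. They were taken by symbol from a deposited table of read counts that holds 56953 genes, and all 7 were measured well enough to be tested. The table comes from bulk RNA sequencing of prefrontal cortex of 8-month-old B6C3F1/J mice in a study that asked how loss of chromogranin A, a protein of secretory granules, alters a mouse model of tauopathy. The age is that of the labels and methods, and a figure legend of the study gives a different one. There were 5 libraries of wild-type (WT) mice, 6 of PS19 mice (labelled hTau) and 6 of CgA-KO/PS19 mice (labelled CgA-KO/hTau), 17 in all. PS19 mice express a human tau with the P301S change from a transgene under the mouse prion promoter, and CgA-KO/PS19 mice carry that transgene as well as a whole-body deletion of Chga present from birth, so that loss of Chga without the transgene was not among these groups. The Chga knockout came from another strain background and was then backcrossed to B6C3F1/J. Each group held males and females, and the labels do not give the sex of a library.

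The cortex is built in layers. Neurons of the upper layers are born last, and most of them connect cortical areas with each other, whereas deep-layer neurons send axons to the thalamus, striatum, brainstem and spinal cord. Cux1 and Cux2 encode homeobox transcription factors that shape dendrites and synapses of upper-layer neurons, and Rorb encodes a nuclear receptor typical of the granular layer that receives thalamic input. The other 4 genes encode products that work in the cell: Lamp5, a neuronal relative of the lysosomal membrane proteins that is found in upper-layer pyramidal cells and in some GABAergic interneurons; Calb1, the calcium buffer calbindin, which striatal projection neurons and some interneurons also contain; Rasgrf2, a calcium-sensitive activator of Ras and Rac; and Mdga1, a membrane-anchored adhesion protein that binds neuroligins.

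All 7 are protein-coding genes. In GENCODE M21 (GRCm38), Cux1 lies on chromosome 5 from 136248135 to 136567490 and Cux2 on the same chromosome from 121856366 to 122050102, both on the minus strand. Rorb lies on chromosome 19 from 18930605 to 19111196, Rasgrf2 on chromosome 13 from 91880400 to 92131656 and Mdga1 on chromosome 17 from 29827949 to 29970087, also on the minus strand. Lamp5 on chromosome 2 from 136052239 to 136069917 and Calb1 on chromosome 4 from 15881264 to 15908064 lie on the plus strand. Only Cux1 overlaps another annotated gene, Gm16599 on the opposite strand, and whether the counting used the strand is not given in the sources used here.

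Levels are given as CPM, read counts scaled to a common library total after TMM normalization. Total counts ranged from 8838334 in WT replicate 4 to 227651681. Chga had 152 to 180.1 CPM in WT and 162 to 177 CPM in PS19, and 0 counts in all 6 CgA-KO/PS19 libraries, which allows at most 0.239 CPM in the shallowest of them. Prnp, whose promoter drives the transgene, ranged from 748 to 914 CPM in WT, from 1974 to 2368 CPM in PS19 and from 1236 to 2079 CPM in CgA-KO/PS19. The tissue label was met in part. The glutamatergic neuron marker Slc17a7 had 492 to 1645 CPM over the 17 libraries, but 20 genes typical of the striatum, a neighbouring forebrain region, summed to 1198 to 3584 CPM in WT, 204 to 252 CPM in PS19, 480 to 2175 CPM in CgA-KO/PS19 replicates 1 to 3 and 236 to 247 CPM in CgA-KO/PS19 replicates 4 to 6. WT replicate 5 also stood apart by 8 choroid plexus genes, which summed to 1108 CPM against 4.44 to 19.7 CPM in the other libraries. PS19 replicates 4 to 6 were nearly identical to each other, with a robust spread of log2 ratios of 0.0523 to 0.0607 over 3761 abundant genes. That spread was 0.0980 between CgA-KO/PS19 replicates 1 and 3, and in these pairs it was 1.75 to 2.57 times counting noise, so that the libraries were kept separate. In each genotype, Ddx3y on the Y chromosome had 49.8 to 76.8 CPM in replicates 1 to 3 and at most 0.0582 CPM in the later replicates, so that sex and this split of the replicate numbers cannot be told apart.

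Per kilobase of merged exons, which allows a comparison between genes, the order of mean levels in PS19 was Lamp5 with 117 ± 14.0 CPM per kb (SD, n = 6), Rasgrf2 with 34.4 ± 1.75, Calb1 with 33.2 ± 3.44, Cux2 with 18.8 ± 2.06, Rorb with 9.10 ± 0.749, Cux1 with 7.18 ± 0.463 and Mdga1 with 1.37 ± 0.210 CPM per kb. Rasgrf2 and Calb1 overlapped between libraries, and the remaining neighbours in that order did not. In WT, Lamp5 had 31.3 to 79.0 CPM per kb and Calb1 had 37.7 to 58.2 CPM per kb, so that the highest of the PS19 levels was not set apart there. Mdga1 was the lowest of the 7 in each genotype.

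The comparison of WT with PS19 asked how cortex with the tau transgene differs from cortex without it. Cux2 was lower in WT than in PS19 (1.88-fold) and Mdga1 was higher in WT (2.60-fold), and the remaining 5 genes did not pass the false discovery rate (FDR) of 0.05. The genes thus did not move as one block: Cux2 and Mdga1 changed in opposite directions. These 2 of 7 stand beside 5.90% of the 23062 genes tested that passed in this comparison. The median log2 fold change of the 7 genes was -0.37, against -0.01 for all genes tested.

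Among the transcription factors, Cux1 had 138, 105, 103, 126 and 87.0 CPM in WT replicates 1 to 5, and its lowest, median and highest levels in PS19 were 132, 146 and 157 CPM. Cux2 had 155, 107, 95.5, 86.1 and 59.5 CPM in WT, and 156, 194 and 207 CPM in PS19. Rorb had 91.1, 58.3, 51.0, 91.1 and 32.6 CPM in WT, and 91.4, 102 and 112 CPM in PS19. For Cux2 and Rorb every WT library lay below every PS19 library, though the nearest libraries were almost level, and for Cux1 the highest WT library lay inside the PS19 range. The levels gave means of 112 ± 20.0 CPM (SD, n = 5) and 144 ± 9.28 CPM (SD, n = 6) for Cux1, 100.5 ± 34.9 and 189 ± 20.8 CPM for Cux2, and 64.8 ± 25.8 and 100.8 ± 8.29 CPM for Rorb. By edgeR's quasi-likelihood test, the log2 fold change of WT against PS19 was -0.91 ± 0.20 (SE, adjusted p = 0.0118) for Cux2. For Rorb it was -0.64 ± 0.22 (edgeR, adjusted p = 0.0921) and for Cux1 -0.37 ± 0.12 (edgeR, adjusted p = 0.0781). All 3 transcription factor genes had lower means in WT. The call of Cux2 was lost with the replicate block (edgeR, adjusted p = 0.0552) and with near-identical libraries averaged (edgeR, adjusted p = 0.0729), whereas Cux1 and Rorb were called with DESeq2 (adjusted p = 0.0399 and 0.0450).

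**Figure D1:**
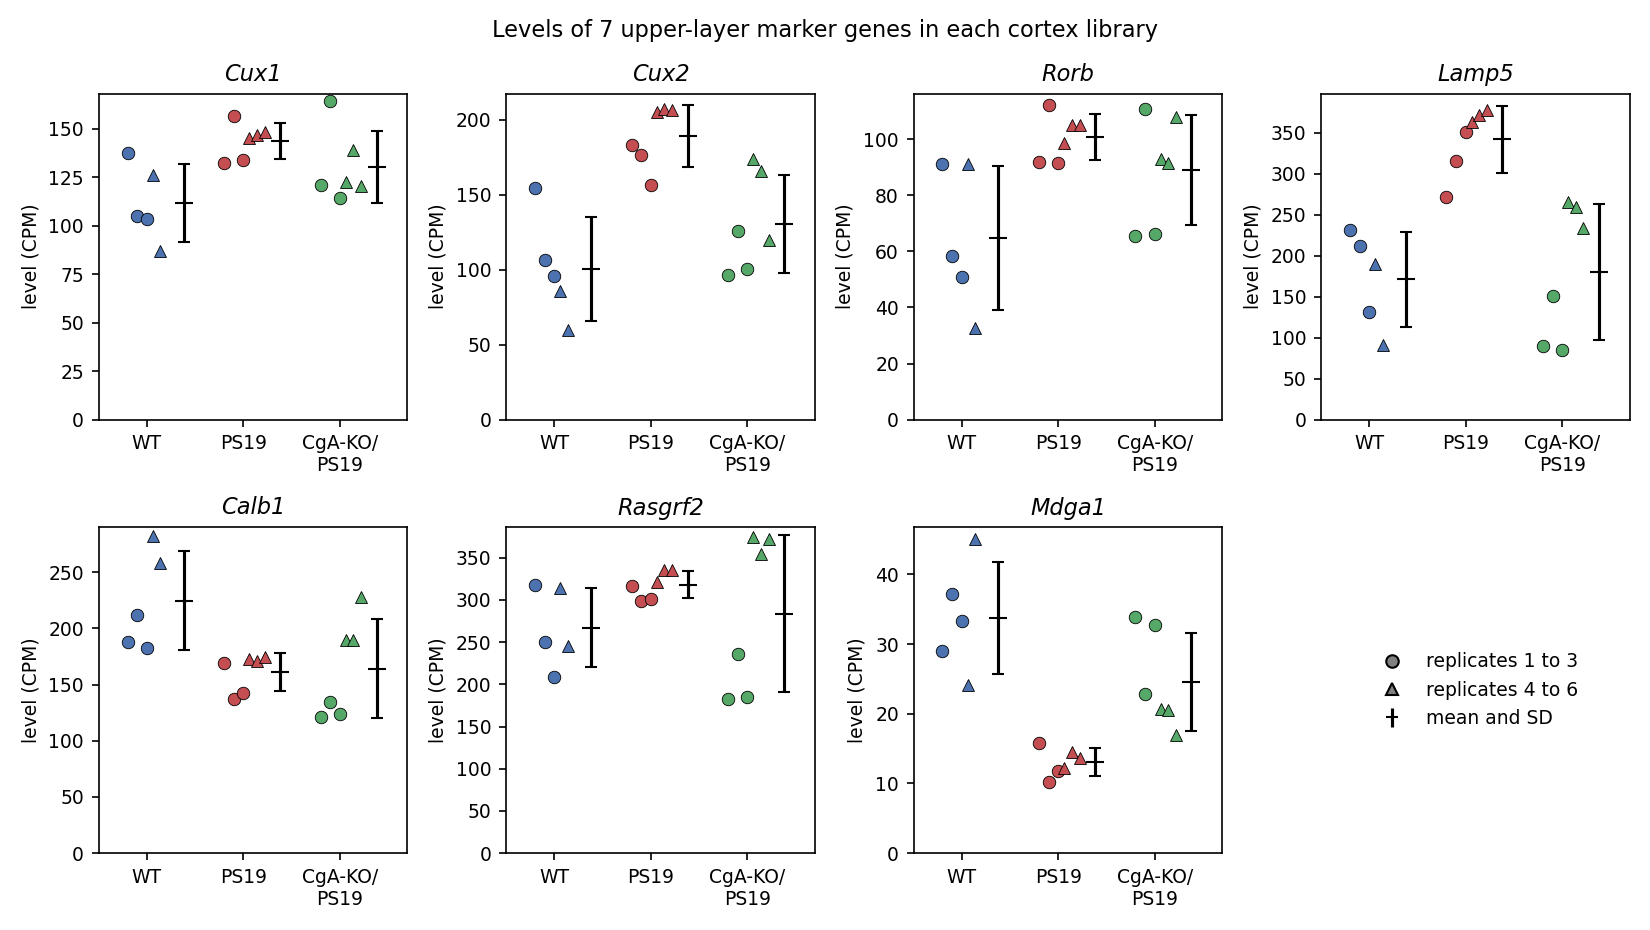
Level of each of the 7 genes in CPM (vertical axes from 0) in the WT, PS19 and CgA-KO/PS19 libraries. Circles are replicates 1 to 3, triangles are replicates 4 to 6, and the bars beside them are the mean and SD. Mdga1 is lowest in PS19, at 10.2 to 15.8 CPM, Lamp5 is highest there, at 271 to 378 CPM, and the circles and triangles of CgA-KO/PS19 lie apart for Lamp5, Calb1 and Rasgrf2, where triangles are higher, and for Mdga1, where they are lower.

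Lamp5 had 232, 211, 131, 190.3 and 91.7 CPM in WT, and its lowest, median and highest levels in PS19 were 271, 358 and 378 CPM. All WT libraries lay below all PS19 libraries. The means were 171 ± 58.2 CPM (SD, n = 5) and 342 ± 41.1 CPM (SD, n = 6), and the log2 fold change of -0.999 ± 0.30 narrowly missed the threshold (edgeR, adjusted p = 0.0543). Rasgrf2 had 317, 250.1, 209, 314 and 246 CPM in WT, and 298, 319 and 336 CPM in PS19, so that 2 WT libraries reached the PS19 range. Its log2 fold change was -0.25 ± 0.19 (edgeR, adjusted p = 0.476).

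Calb1 and Mdga1 had higher levels in WT. Calb1 had 188, 212, 183, 282 and 258 CPM in WT, and 137, 170.1 and 174 CPM in PS19. Here every WT library lay above every PS19 library, and the log2 fold change of 0.48 ± 0.17 did not pass (edgeR, adjusted p = 0.0989). Mdga1 had 29.0, 37.3, 33.4, 24.1 and 45.1 CPM in WT, and 10.2, 12.9 and 15.8 CPM in PS19. Its lowest WT library was 1.53 times its highest PS19 library, the widest such gap of the 7 genes. The means were 33.8 ± 8.01 CPM (SD, n = 5) and 13.0 ± 2.00 CPM (SD, n = 6), and the log2 fold change was 1.38 ± 0.19 (edgeR, adjusted p = 4.74e-04).

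Over all 7 genes, the WT and PS19 libraries did not overlap for 5, lower in WT for Cux2, Rorb and Lamp5 and higher for Calb1 and Mdga1, beside 9.52% of all genes tested. The study's methods ask for a p under 0.01, taken here as unadjusted, and an absolute log2 fold change over 0.5. That threshold was passed by Cux2, Rorb, Lamp5 and Mdga1, beside 7.39% of all genes. The study's results text gives a stricter threshold, whose cut-off is larger than the log2 fold change of any of the 7 genes here. Without WT replicates 4 and 5, Mdga1 alone was called, beside 1.84% of all genes, and Cux2 also lost its call within replicates 1 to 3 (log2 fold change -0.53, edgeR, adjusted p = 0.199). With DESeq2, 5 of the 7 genes were called, beside 9.81% of all genes.

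**Figure D2:**
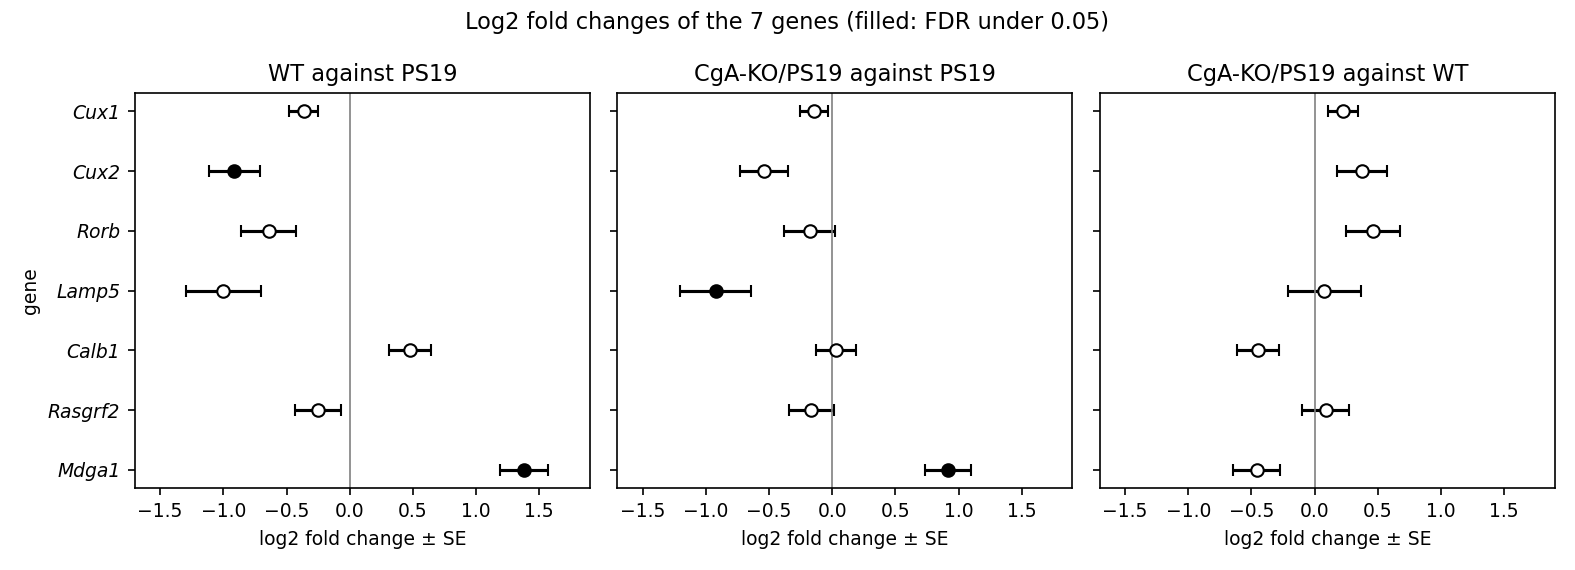
Log2 fold change with its SE (horizontal axes) of the 7 genes in 3 comparisons: WT against PS19, CgA-KO/PS19 against PS19 and CgA-KO/PS19 against WT. Filled points passed an FDR of 0.05 by edgeR. Mdga1 lies to the right in both comparisons with PS19 (1.38 and 0.92), Cux2 and Lamp5 lie to the left, and no point is filled in the comparison with WT.

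The comparison of CgA-KO/PS19 with PS19 asked what loss of chromogranin A changes in cortex that carries the transgene. Lamp5 was lower in CgA-KO/PS19 (1.89-fold) and Mdga1 was higher (1.89-fold), and the other 5 genes did not pass. These 2 of 7 stand beside 9.72% of all genes tested that passed here. The median log2 fold change of the 7 genes was -0.16, against 0.03 for all genes. Both this comparison and that of WT use the same 6 PS19 libraries, so that a level particular to those libraries enters both.

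Lamp5 had a lowest level of 84.9, a median of 192 and a highest level of 265 CPM in CgA-KO/PS19, all below the lowest PS19 library at 271 CPM. The mean was 181 ± 83.0 CPM (SD, n = 6), and the log2 fold change against PS19 was -0.92 ± 0.28 (edgeR, adjusted p = 0.0451). Mdga1 had 16.9, 21.8 and 33.9 CPM as its lowest, median and highest levels, all above the highest PS19 library at 15.8 CPM. Its mean was 24.6 ± 7.02 CPM (SD, n = 6), and its log2 fold change was 0.92 ± 0.18 (edgeR, adjusted p = 0.00688). Lamp5 and Mdga1 were the only 2 of the 7 genes without overlap between these genotypes, beside 6.63% of all genes tested. The same 2 passed the threshold of the study's methods, beside 9.73% of all genes.

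Cux2 had a lowest level of 96.5, a median of 123 and a highest level of 174 CPM in CgA-KO/PS19, and its log2 fold change against PS19 was -0.54 ± 0.19 (edgeR, adjusted p = 0.0772). Rorb, with 65.3, 92.1 and 111 CPM, had a log2 fold change of -0.18 ± 0.20 (edgeR, adjusted p = 0.605). Cux1, with 114, 122 and 164 CPM, had one of -0.14 ± 0.11 (edgeR, adjusted p = 0.423). All 3 transcription factor genes thus overlapped with PS19. Rasgrf2, with 182, 295 and 374 CPM, had a log2 fold change of -0.16 ± 0.18 (edgeR, adjusted p = 0.578), and Calb1, with 121, 162 and 227 CPM, had one of 0.03 ± 0.16 (edgeR, adjusted p = 0.933). The widest spread in CgA-KO/PS19 was that of Lamp5, whose SD was 45.9% of its mean, against 12.0% in PS19.

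That spread followed the replicate numbers. Lamp5 had 89.6, 151 and 84.9 CPM in CgA-KO/PS19 replicates 1 to 3 and 265, 259 and 233 CPM in replicates 4 to 6. Rasgrf2 had 182, 235 and 185 CPM in replicates 1 to 3 and 374, 354 and 372 CPM in replicates 4 to 6. Calb1 had 121, 135 and 124 CPM in replicates 1 to 3 and 189, 189.6 and 227 CPM in replicates 4 to 6. For all 3 genes the later replicates lay above the earlier ones without overlap. In a fit chosen after the data were seen, with a mean for each genotype and replicate set, replicates 4 to 6 of CgA-KO/PS19 exceeded replicates 1 to 3 by a log2 difference of 1.22 ± 0.27 for Lamp5 (edgeR, adjusted p = 0.00647), 0.87 ± 0.14 for Rasgrf2 (edgeR, adjusted p = 0.00109) and 0.68 ± 0.10 for Calb1 (edgeR, adjusted p = 7.43e-04). In that fit 19.1% of all genes differed between the replicate sets of CgA-KO/PS19, against 0.130% in WT and 0.0520% in PS19, and none of the 7 genes passed in WT or PS19, where 2 had an unadjusted p under 0.05, both in WT (Cux2 and Calb1). Mdga1 went the other way, with 33.9, 22.9 and 32.7 CPM in replicates 1 to 3 and 20.7, 20.5 and 16.9 CPM in replicates 4 to 6, a log2 difference of -0.62 ± 0.22 that did not pass (edgeR, adjusted p = 0.0636).

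Within replicates 1 to 3 of both genotypes, Cux2, Lamp5 and Rasgrf2 were lower and Mdga1 was higher in CgA-KO/PS19 relative to PS19 (4 of 7 called, beside 31.1% of all genes tested). Within replicates 4 to 6, none of the 7 genes was called by edgeR, beside 0.806% of all genes, and 2 had an unadjusted p under 0.05. No other tool was run on these libraries alone. There Lamp5 had a log2 fold change of -0.57 (edgeR, adjusted p = 0.324) and Mdga1 one of 0.51 (edgeR, adjusted p = 0.373). The mitochondrially encoded share of counts was 13.8 to 18.2% in CgA-KO/PS19 replicates 1 to 3, 3.84 to 10.9% in its replicates 4 to 6 and 2.56 to 4.59% in PS19. With the mitochondrially encoded genes left out of the counts, Lamp5 and Mdga1 kept their calls, at log2 fold changes of -0.93 (edgeR, adjusted p = 0.0440) and 0.92 (edgeR, adjusted p = 0.00794). Lamp5 lost its call when any PS19 library or CgA-KO/PS19 replicate 1, 2 or 3 was left out (adjusted p up to 0.0999 by edgeR), and Mdga1 kept its call in all 12 such fits. Both calls were lost when the near-identical libraries, which may be technical replicates, were averaged, with log2 fold changes of -0.72 for Lamp5 (edgeR, adjusted p = 0.241) and 0.83 for Mdga1 (edgeR, adjusted p = 0.0776).

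Between CgA-KO/PS19 and WT no member passed in edgeR, beside 6.46% of all genes tested. At an unadjusted p under 0.05 there were 3, and DESeq2 called none while limma voom called 1, Calb1. Calb1 was lower in CgA-KO/PS19, with a log2 fold change of -0.45 ± 0.17 (edgeR, adjusted p = 0.113), as was Mdga1 with -0.46 ± 0.19 (edgeR, adjusted p = 0.158). Rorb had 0.46 ± 0.22 (edgeR, adjusted p = 0.220) and Cux2 0.37 ± 0.20 (edgeR, adjusted p = 0.294). Cux1 had 0.22 ± 0.12, Rasgrf2 0.09 ± 0.19 and Lamp5 0.08 ± 0.29, with adjusted p of 0.292, 0.843 and 0.918 by edgeR. For each of the 7 genes the libraries of these genotypes overlapped, beside 3.60% of all genes without overlap. None of the 7 passed the threshold of the study's methods, beside 7.75% of all genes. The mean level in CgA-KO/PS19 lay between those of WT and PS19 for all 7 genes, near that of PS19 for Calb1 and near that of WT for Lamp5. For Calb1 and Rasgrf2 that mean averaged 2 sets of libraries. Replicates 1 to 3 lay below the PS19 range (Calb1 121 to 135 CPM, Rasgrf2 182 to 235 CPM). Replicates 4 to 6 lay above it (189 to 227 and 354 to 374 CPM), so that no CgA-KO/PS19 library was within the PS19 range.

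Other genes of the upper layers were set beside the 7 members. Of 24 further upper-layer genes, 2 were higher and 4 were lower in WT than in PS19. Otof, which encodes the calcium sensor otoferlin, had 28.4 to 66.0 CPM in WT and 10.3 to 18.8 CPM in PS19, a log2 fold change of 1.51 (edgeR, adjusted p = 5.37e-04). Wfs1, which encodes wolframin of the endoplasmic reticulum, had 139 to 247 CPM in WT and 81.2 to 99.9 CPM in PS19, a log2 fold change of 0.94 (edgeR, adjusted p = 0.00296). Like Mdga1, both were higher in every WT library. Lower in WT were the POU-domain transcription factor gene Pou3f3 with -0.90, Stard8 with -0.76 and the adhesion gene Nectin3 with -0.63 on the log2 scale (edgeR, adjusted p = 0.0156, 0.0151 and 0.0162). The median log2 fold change of the 24 genes was -0.37, as was that of the 7 members.

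Of the same 24 genes, with CgA-KO/PS19 against PS19, 2 were higher and 2 were lower. Otof had 21.4 to 34.8 CPM in CgA-KO/PS19, a log2 fold change of 0.95 (edgeR, adjusted p = 0.00978), and Whrn had 0.56 (edgeR, adjusted p = 0.0275). Pou3f1 had -1.07 (edgeR, adjusted p = 0.00873) and Stard8 -0.69 (edgeR, adjusted p = 0.0171). The median of the 24 genes was -0.03, against 0.03 for all genes. Against WT, 4 were higher and 2 were lower in CgA-KO/PS19, among them Whrn with 0.67, Hsd11b1 with 0.79 and Pou3f3 with 0.79, and Wfs1 with -0.98 and Inhba with -0.66 (edgeR, adjusted p from 0.00376 to 0.0337).

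Deep-layer genes were counted in the same way. Of 24 measured, 9 were higher and 1 was lower in WT relative to PS19, and the median log2 fold change was 0.56. Moxd1 (1.33), Sulf1 (1.55) and the transcription factor gene Bcl11b (1.38) had the smallest p, and Tshz2 (-0.75) was the one lower gene (edgeR, adjusted p from 4.39e-04 to 0.0373). Bcl11b is also a gene of striatal projection neurons, and it had 157 to 345 CPM in WT and 80.9 to 105 CPM in PS19. Summed over the 7 members, the level ran from 806 to 1149 CPM in WT, from 1180.5 to 1362 CPM in PS19 and from 707 to 1238 CPM in CgA-KO/PS19, so that every WT library lay below every PS19 library. Summed over the deep-layer genes, it ran from 1490.1 to 1734 CPM in WT, from 1126 to 1504 CPM in PS19 and from 1293 to 1566 CPM in CgA-KO/PS19. The ratio of the members to the deep-layer genes thus ran from 0.473 to 0.771 in WT, from 0.785 to 1.20 in PS19 and from 0.490 to 0.931 in CgA-KO/PS19. Without Bcl11b and Pcp4, both of which striatal projection neurons also express, the other 22 deep-layer genes summed to means of 1082 CPM in WT and 1040.6 CPM in PS19, and the ratio ran from 0.765 to 1.04 in WT, from 0.948 to 1.49 in PS19 and from 0.857 to 1.15 in CgA-KO/PS19, so that WT and PS19 then overlapped. The other 22 deep-layer genes were not screened for striatal expression. In these bulk samples, fewer cells of a type and less RNA per cell cannot be told apart.

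**Figure D3:**
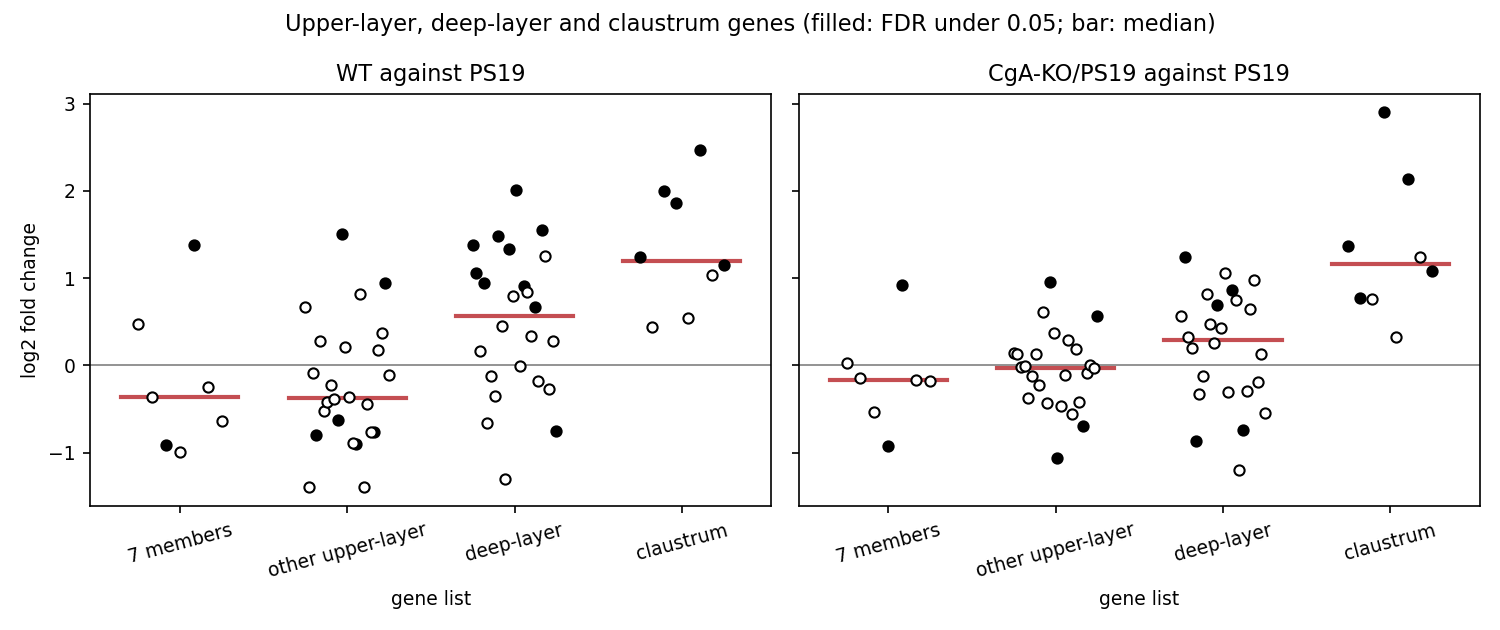
Log2 fold change (vertical axis) of each gene of 4 lists, the 7 members, 24 other upper-layer genes, 24 deep-layer genes and 8 claustrum genes, for WT against PS19 (left) and CgA-KO/PS19 against PS19 (right). Filled points passed an FDR of 0.05 by edgeR and the red bar is the median of the list. In WT the medians were -0.37, -0.37, 0.56 and 1.20 in that order.

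Between CgA-KO/PS19 and PS19, 3 deep-layer genes were higher in CgA-KO/PS19 and 2 were lower, with a median log2 fold change of 0.29. Ccn2, a gene of the deepest cortical neurons, had 1.24, Pcp4 had 0.87 and Moxd1 had 0.69, whereas Deptor had -0.87 and Slc17a8 -0.75 (edgeR, adjusted p from 0.00220 to 0.0241). Against WT, 1 deep-layer gene, Ighm (1.56), was higher in CgA-KO/PS19 and 4 were lower, among them Slc17a8 (-1.41), Sulf1 (-0.91) and Moxd1 (-0.64; edgeR, adjusted p from 3.54e-04 to 0.0451).

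Markers of neighbouring regions also differed between the genotypes. By group means, their levels were higher in WT and in CgA-KO/PS19 than in PS19, while most members were lower there and Mdga1 was higher. Of the 20 striatal genes, 19 were higher in WT than in PS19 and 15 were higher in CgA-KO/PS19 relative to PS19, with none lower in either. The defining striatal gene Drd1 had 41.6 to 115 CPM in WT and 5.66 to 10.0 CPM in PS19, Drd2 had 33.4 to 132 and 0.601 to 1.31 CPM, and of the 20 genes none was at 0 in a WT library and 1 was at 0 in all PS19 libraries. Of 8 genes of the claustrum and the lateral cortex beside it, 5 were higher in WT and 5 in CgA-KO/PS19, both relative to PS19, and their sums ran from 336 to 434 CPM in WT, from 110.4 to 255 CPM in PS19 and from 347 to 504 CPM in CgA-KO/PS19. CgA-KO/PS19 replicates 4 to 6 had striatal sums within the PS19 range and, at 347 to 373 CPM, claustral sums within the WT range. Summed over the 7 members, these 3 libraries had 1197 to 1238 CPM, within the PS19 range. With the mean centred log2(CPM + 1) of the striatal genes as a covariate, Mdga1 kept its call in both comparisons with PS19, at log2 fold changes of 0.64 (edgeR, adjusted p = 0.0286) and 0.54 (edgeR, adjusted p = 0.0262), and Cux2 and Lamp5 lost theirs. In WT against PS19 3 of the 7 genes were called with this covariate, Mdga1, Calb1 and Rasgrf2. Of these, Calb1 and Rasgrf2 were not called without it. The log2 fold change of Rasgrf2 there changed sign, from -0.25 to 0.59, and was called as higher in WT (edgeR, adjusted p = 0.00336). With the same score of the claustral genes as a covariate, Mdga1 lost both, at 0.62 (edgeR, adjusted p = 0.203) and 0.11 (edgeR, adjusted p = 0.866). The claustral sum separated PS19 from both other genotypes without overlap, so that genotype and the level of these regional genes cannot be told apart.

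**Figure D4:**
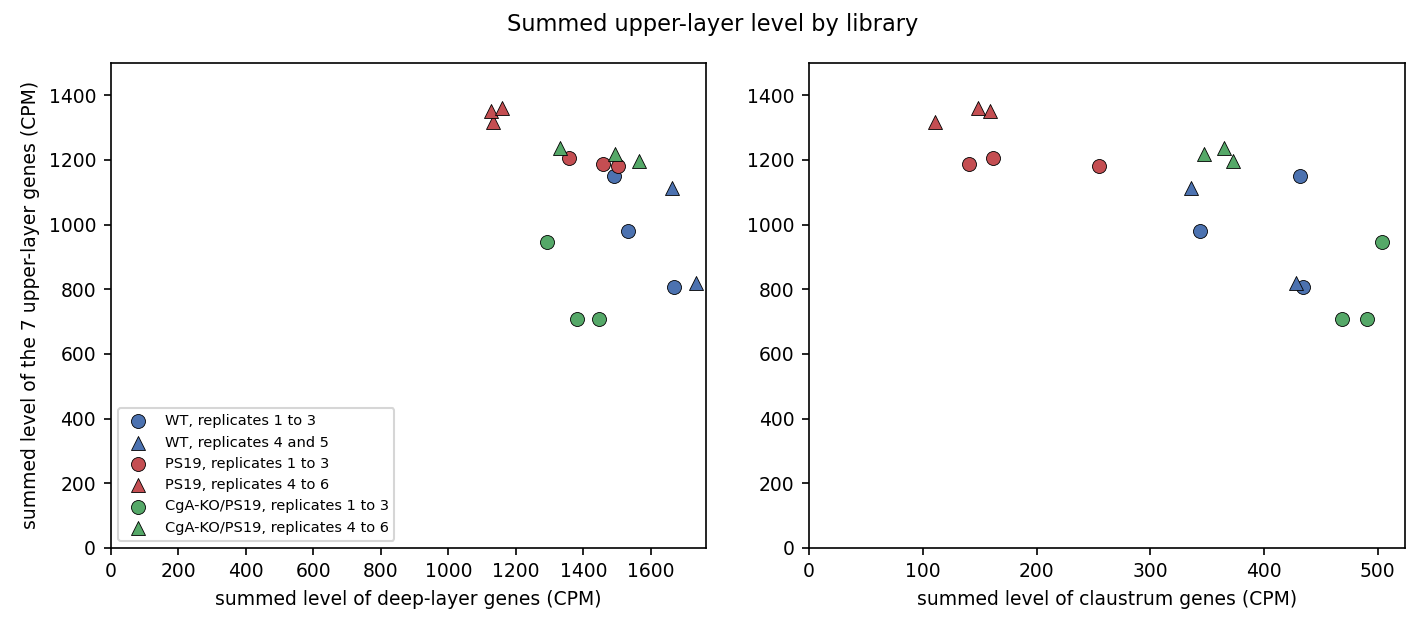
Summed level of the 7 upper-layer genes in each library (vertical axis, CPM) against the summed level of deep-layer genes (left) and of claustrum genes (right), both in CPM. Colours are genotypes, circles are replicates 1 to 3 and triangles are later replicates. PS19 libraries lie at 1180.5 to 1362 CPM of the 7 genes and at the lowest claustral levels, up to 255 CPM.

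Other cell classes were counted for WT against PS19 as well. Of 8 pan-neuronal genes none passed in edgeR, and none had an unadjusted p under 0.05, and their median log2 fold change was -0.05. Of 9 excitatory-neuron genes Arpp21 (0.78) was higher and Emx1 (-0.94) was lower in WT, and of 14 interneuron genes Calb2 (1.80) and Gad2 (0.62) were higher and Pvalb (-1.37) was lower (edgeR, adjusted p from 0.00226 to 0.0346). Of 8 astrocyte genes only Aldh1l1 (-0.76; edgeR, adjusted p = 0.0166) passed, and of 8 oligodendrocyte, 8 microglial and 7 endothelial genes none did in edgeR, where 1 endothelial gene had an unadjusted p under 0.05. Of 10 hippocampal genes 1, Fibcd1 (1.42), and of 8 choroid plexus genes 5, Clic6 (4.16) and Ttr (7.61) among them, were higher in WT (edgeR, adjusted p from 5.49e-04 to 0.0405). Ttr had 1023 CPM in WT replicate 5 and 3.24 to 9.92 CPM in the other WT libraries.

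Of these classes, 5 of the 14 interneuron genes were lower in CgA-KO/PS19 relative to PS19, with Gad1 (-0.78) and Pvalb (-0.88) leading, and 2 of the 8 pan-neuronal genes, Tubb3 (-0.62) and Eno2 (-0.76), were lower (edgeR, adjusted p from 0.00761 to 0.0219). Emx1 (-0.86) was lower among the excitatory-neuron genes, Aqp4 (0.67) and Slc1a3 (0.51) were higher among the astrocyte genes, and Mobp (1.37) was higher among the oligodendrocyte genes (edgeR, adjusted p from 0.00842 to 0.0465). Mobp, Aqp4, Slc1a3, Tubb3, Gad1, Pvalb and the summed interneuron genes followed the replicate split as well, without overlap between the sets. Emx1 (7.90 to 10.3 CPM in replicates 1 to 3 and 9.93 to 18.2 CPM in replicates 4 to 6) and Eno2 (341 to 457 and 436 to 747 CPM) overlapped between the sets. Mobp had 683 to 797 CPM in CgA-KO/PS19 replicates 1 to 3 and 233 to 304 CPM in its replicates 4 to 6, against 174 to 256 CPM in PS19. Aqp4 had 176 to 182 CPM in replicates 1 to 3 and 83.3 to 114 CPM in replicates 4 to 6, against 69.7 to 103 CPM in PS19. Interneuron genes, which share some cells with Lamp5, summed to 798 to 853 CPM in CgA-KO/PS19 replicates 1 to 3, 1230 to 1266 CPM in its replicates 4 to 6, 1356 to 1548 CPM in PS19 and 1361 to 1796 CPM in WT. In WT against PS19, 9 of the 14 interneuron genes had a log2 fold change above 0. Gad2 had 307 to 526 CPM in WT and 257 to 283 CPM in PS19, whereas Pvalb had 14.5 to 37.8 and 61.4 to 75.9 CPM. Whether the level of interneuron genes bears on that of Lamp5 was not tested.

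Relatives and partners of the members were measured too. Of 14 tested, Calb2, the calretinin gene, was higher in WT than in PS19, and Pvalb (parvalbumin) and Rora, a relative of Rorb, were lower, Rora by a log2 fold change of -0.53 (edgeR, adjusted p = 0.0241). In the comparison of CgA-KO/PS19 with PS19, Pvalb and Nlgn2, the neuroligin of inhibitory synapses to which Mdga1 protein binds, were lower, Nlgn2 by -0.52 (edgeR, adjusted p = 0.0318). Nlgn2 had 191 to 328 CPM in CgA-KO/PS19 and 343 to 358 CPM in PS19, without overlap, so that Mdga1 and Nlgn2 moved in opposite directions in this comparison. Against WT, Calb2 (-1.77) was the one relative that passed in CgA-KO/PS19 (edgeR, adjusted p = 0.00398).

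The genes whose levels followed each member most closely over the 17 libraries were found by Pearson's r of log2(CPM + 1) among 15473 genes. They were Cpne9 for Cux1 (r = 0.91), Igsf9b for Cux2 (0.97), Zfp367 for Rorb (0.96), Kcns3 for Lamp5 (0.98), Top1 for Calb1 (0.95), Prrg3 for Rasgrf2 (0.97) and Doc2b for Mdga1 (0.97). Next came Rorb and Arhgap15 for Cux1, Galt and Vasn for Cux2, Exph5 and Sytl2 for Rorb, Hapln4 and Acsl5 for Lamp5, Ajap1 and Ctr9 for Calb1, Ing2 and Glt8d2 for Rasgrf2, and Shisal1 and Arhgef28 for Mdga1. These values are a description: all points share the genotype differences and the replicate split, and each gene was the best of many. Rorb among the likest genes of Cux1 was the one case in which a member came out beside another member. After the genotype means were subtracted, Mdga1 had a negative r with each of the other 6 genes, from -0.80 with Rorb to -0.46 with Calb1, whereas Lamp5 and Rasgrf2 had 0.88 and Cux1 and Rorb 0.85.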

How the data were processed

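Per the labels and the submitters' processing notes, paired-end reads of polyadenylated RNA were trimmed with Trimmomatic 0.39, aligned to mm10 with STAR 2.7.10b and quantified with StringTie 1.3.6. The deposited values are whole-number counts per gene, not normalized; the annotation release and strand setting are not given in the sources used here. Low counts in every library had local peaks at 3 and 6, so that 1 fragment is worth about 3 deposited counts, and counting error is larger than the counts imply. The limit for a count of 0 (3 fragments, 9 counts) covers counting error only.

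Counts were analysed in R 4.3.3 with edgeR 4.0.16 (TMM, filterByExpr, quasi-likelihood fit of all 17 libraries, 1 mean per genotype), and p-values were adjusted after Benjamini and Hochberg for all 23062 tested genes. DESeq2 1.42.0, limma 3.58.1 (voom with a quality weight for each library, called limma voom throughout), other filters, subsets and covariates were alternatives. On simulated counts of 22996 genes for WT against PS19, edgeR called all 200 genes changed by a log2 fold change of 2 and 6 unchanged ones. No member had a change that large, so that the simulation does not show how often changes of their size are missed. The study counts its RNA libraries as mice, but the labels identify no mouse, and where nearly identical libraries are technical replicates the p-values are too small. Replicate numbers were not treated as pairs, since 2 of 16 same-numbered pairs had a correlation of deviations over 0.1.

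The members and gene lists were chosen with earlier results of these data known. All 7 members are named, up to 3 called genes per direction and comparison from the other upper-layer, deep-layer and related genes, and up to 2 from other lists, by smallest p. Slc17a7, Drd1 and Drd2 were named, and the layer ratio without Bcl11b and Pcp4 was added, after their values were seen. The 3 likest genes per member came from genes with a mean of at least 1 CPM. Identifiers were matched without version to GENCODE M21.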

Additional observations from a re-analysis of the deposited data

Results flagged for a closer look

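In 4 cases the difference between genotypes was not the same in replicates 1 to 3 and in replicates 4 to 6, by a test of that difference in a fit with a mean for each genotype and replicate set, chosen after the data were seen. For CgA-KO/PS19 against PS19, the log2 fold change of Calb1 was -0.24 in replicates 1 to 3 and 0.23 in replicates 4 to 6, a difference of 0.47 (edgeR, adjusted p = 0.0486). That of Rasgrf2 was -0.60 and 0.15, a difference of 0.75 (edgeR, adjusted p = 0.0248). In this comparison 11.7% of all genes tested differed in the same way, and Lamp5, at -1.53 and -0.56, did not pass (edgeR, adjusted p = 0.107).

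For CgA-KO/PS19 against WT, the log2 fold change of Cux2 was -0.14 in replicates 1 to 3 and 1.08 in the later replicates, a difference of 1.22 (edgeR, adjusted p = 0.0248). That of Lamp5 was -0.82 and 0.85, a difference of 1.67 (edgeR, adjusted p = 0.0287). Here 5.47% of all genes tested differed. In WT against PS19 none of the 7 genes passed in edgeR, where 1, Cux2, had an unadjusted p under 0.05, and 0.0564% of all genes differed. The mean level of Lamp5 in CgA-KO/PS19 over 6 libraries is thus an average of 2 sets of libraries, 84.9 to 151 CPM and 233 to 265 CPM. By Dixon's criterion, no gene of the 7 had a single library far from the others of its genotype.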

How the results depend on the processing

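The number of the 7 genes called in WT against PS19, 2 by edgeR, was 5 with DESeq2 and with only the genotypes compared in the fit, 6 with limma voom, 4 within replicates 4 to 6, and 1 with near-identical libraries averaged, within replicates 1 to 3, without WT replicates 4 and 5, or with the claustral covariate. In that comparison it was 3 with DESeq2 size factors in edgeR, at least 10 counts in every library, or the striatal, Ddx3y or split covariate. With CgA-KO/PS19 against PS19, where it was 2, it was 3 with DESeq2, limma voom, only the genotypes compared or without WT replicates 4 and 5 (Cux2 added in each), 4 within replicates 1 to 3, 1 without a filter on low counts, with the replicate number as a block or with the striatal covariate, and 0 with near-identical libraries averaged, within replicates 4 to 6 or with the claustral covariate (edgeR; 2, 2 and 1 at an unadjusted p under 0.05). With CgA-KO/PS19 against WT, where it was 0, it was 3 with the striatal covariate and 1 with limma voom, the replicate block, the Ddx3y covariate, replicates 1 to 3, replicates 4 to 6, the claustral covariate or the replicate split as a covariate. Leaving out each library in turn gave 2 to 5, 1 to 3 and 0 to 1 calls in the 3 comparisons, with 5 without WT replicate 1. The share of all genes called also differed between settings, as given elsewhere in the text for some of them. It is not set beside each count here, so that the counts are not read as a result about the 7 genes. The cause of these moves was not tested.

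Mdga1 in WT against PS19 kept its call in 16 of 17 settings and in each of the 11 fits without a library, and it lost it with the claustral covariate. Its call in CgA-KO/PS19 against PS19 was also lost with near-identical libraries averaged (edgeR, adjusted p = 0.0776). The call of Cux2 in WT was lost in 6 settings, among them the replicate block (edgeR, adjusted p = 0.0552) and averaging (0.0729). Same-numbered libraries did not deviate together (2 of 16 correlated best with their own number), and the block moved the member calls as given above; it called 2.86%, 2.84% and 2.66% of all genes in the 3 comparisons.

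Of 357 values of single genes under other settings, 30 changed sign. With the striatal covariate, log2 fold changes in WT against PS19 became 0.045 for Rorb, 0.33 for Lamp5 and 0.59 for Rasgrf2. Against PS19, the CgA-KO/PS19 values became 0.14 for Rorb and 0.16 for Rasgrf2, and against WT -0.77 for Lamp5 and -0.43 for Rasgrf2. With the claustral covariate they became 0.076 for Lamp5 and 0.38 for Rasgrf2 in WT against PS19, and 0.21 for Rorb, 0.077 for Lamp5 and 0.44 for Rasgrf2 in CgA-KO/PS19 against PS19. Calb1 in CgA-KO/PS19 against PS19, 0.03 as reported, became -0.021 without a filter, -0.14 with limma voom, -0.012 with the replicate block, -0.021 with Ddx3y, -0.23 within replicates 1 to 3 and -0.0089 with the split, and Rasgrf2 became 0.13 within replicates 4 to 6. For CgA-KO/PS19 against WT, Lamp5 became -0.12 with limma voom, -0.074 with the block, -0.068 with Ddx3y, -0.81 within replicates 1 to 3, -0.088 without WT replicates 4 and 5 and -0.074 with the split. Rasgrf2 became -0.022 with limma voom, -0.0055 with the block, -0.35 within replicates 1 to 3 and -0.0014 with the split, and Cux2 became -0.13 within replicates 1 to 3. Leaving out a library changed the sign of Calb1 in CgA-KO/PS19 against PS19 (-0.087 to 0.11) and of Lamp5 (-0.080 to 0.23) and Rasgrf2 (-0.0056 to 0.19) against WT. The covariates of striatal and claustral genes, the averaging, the subsets and the split were alternatives of which the claustral covariate, the split and the fit without WT replicates 4 and 5 were chosen after seeing the data. The lowest level of the 7 genes was 10.2 CPM, and how far depth limits their calls was not tested.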
